A study of Mus musculus with 4 samples.

Results

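Mast cell genes were followed in the mouse periodontal ligament (PDL), the fibrous tissue that ties the tooth root to its bony socket. The set comprised 9 genes listed by symbol: the granule proteases Cma1, Mcpt4, Tpsb2, Tpsab1 and Cpa3, the growth factor receptor Kit, the IgE receptor chains Fcer1a and Ms4a2, and the histamine-forming enzyme Hdc. Array probes were assigned to them by RefSeq accession, and the brightest probe stood for a gene. This gave a probe for 8 of the 9 genes, out of 22911 genes named on the array, and no probe was matched to Tpsab1, which the RefSeq table used here lists as a transcribed pseudogene. The 4 arrays held PDL RNA of Mkx-KO and WT mice at 10 weeks of age and of Mkx-KO and WT mice at 4 weeks of age, 1 array for each of the 4 groups. The Mkx-KO mice carry a knockout of Mkx, which encodes the transcription factor Mohawk, known for its part in tendon and ligament. The labels do not give the design of the knockout allele, the strain, the sex or the number of mice behind each RNA.

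Mast cells are tissue-resident immune cells that depend on signalling from stem cell factor through the receptor KIT. They bind IgE through a high-affinity receptor, and crosslinking of that receptor releases granules filled with histamine, heparin and proteases. In mice, connective tissue mast cells store the chymases encoded by Cma1 and Mcpt4, the tryptase encoded by Tpsb2 and carboxypeptidase A3. They also store the tryptase encoded by Tpsab1 where that gene is functional. Several of these genes are also used by other blood cells: basophils express the IgE receptor chains, Hdc and Cpa3, and Kit is expressed by blood progenitors and melanocytes.

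The Mkx probe read a processed signal of 108 on the Mkx-KO array and 553 on the WT array at 10 weeks, and 193 on the Mkx-KO array and 563 on the WT array at 4 weeks. Whether that probe lies inside the deleted stretch is not known here. Between 61.8% and 66.6% of the 59305 spots per array other than controls were well above background by the scanner software's own call, and none was saturated. All 6 ligament fibroblast markers examined, among them Postn and Col1a1, were well above background on all 4 arrays. Markers of skeletal muscle, olfactory and stratified epithelium and blood cells differed between the arrays. At 4 weeks all 5 olfactory markers and all 6 skeletal muscle markers were at least 2-fold lower in Mkx-KO than in WT. The olfactory gene Omp had a processed signal of 29.9 in Mkx-KO and 7781 in WT at 4 weeks, and 7494 in Mkx-KO and 11068 in WT at 10 weeks. The part of these tissues in the mast cell gene differences was not tested. Further marker lists are given with the results they touch. Because bulk tissue was measured, fewer mast cells and less RNA per mast cell cannot be told apart.

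Levels are given as the processed signal in percent of the 75th percentile of signals on the same array, and differences as log2 differences of these levels. Each difference carries a technical error estimated by the scanner software for the spots, which leaves out variation between mice. A gene was counted as called when the difference was at least 2-fold and both arrays were well above background. With 1 array per group, no difference between a pair of arrays has a replicate check or a p-value.

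The 8 measured genes were well above background on all 4 arrays, and they did not share a pattern. For Mkx-KO against WT at 10 weeks, 4 were higher, 4 were lower and 0 of the 8 were called, where 2.41% of 16457 genes were called (1.03% higher, 1.38% lower). The median difference of the 8 was -0.03, against 0.00 over all genes. At 4 weeks, 2 were higher and 6 lower in Mkx-KO, and 1 of the 8, Ms4a2, was called as lower, where 3.78% of 15686 genes were called (0.465% higher, 3.32% lower). The median there was -0.60, against 0.05 over all genes, -1.42 over the skeletal muscle markers and -7.02 over the olfactory markers. For 10 against 4 weeks in Mkx-KO mice, 5 were higher and 3 lower, and 2 of the 8, Fcer1a and Ms4a2, were called as higher, where 10.1% of 15669 genes were called (6.66% higher, 3.41% lower); both calls were lost under quantile scaling and under normexp. For 10 against 4 weeks in WT mice, 4 were higher and 4 lower; 2 of the 8 were called, Tpsb2 as higher and Mcpt4 as lower, where 8.87% of 16102 genes were called (5.39% higher, 3.48% lower). The medians of these age differences were 0.54 in Mkx-KO and -0.08 in WT, against -0.11 and -0.06 over all genes. Over the skeletal muscle markers they were 2.12 in Mkx-KO and 0.22 in WT, and over the olfactory markers 8.15 and 1.11.

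**Figure D1:**
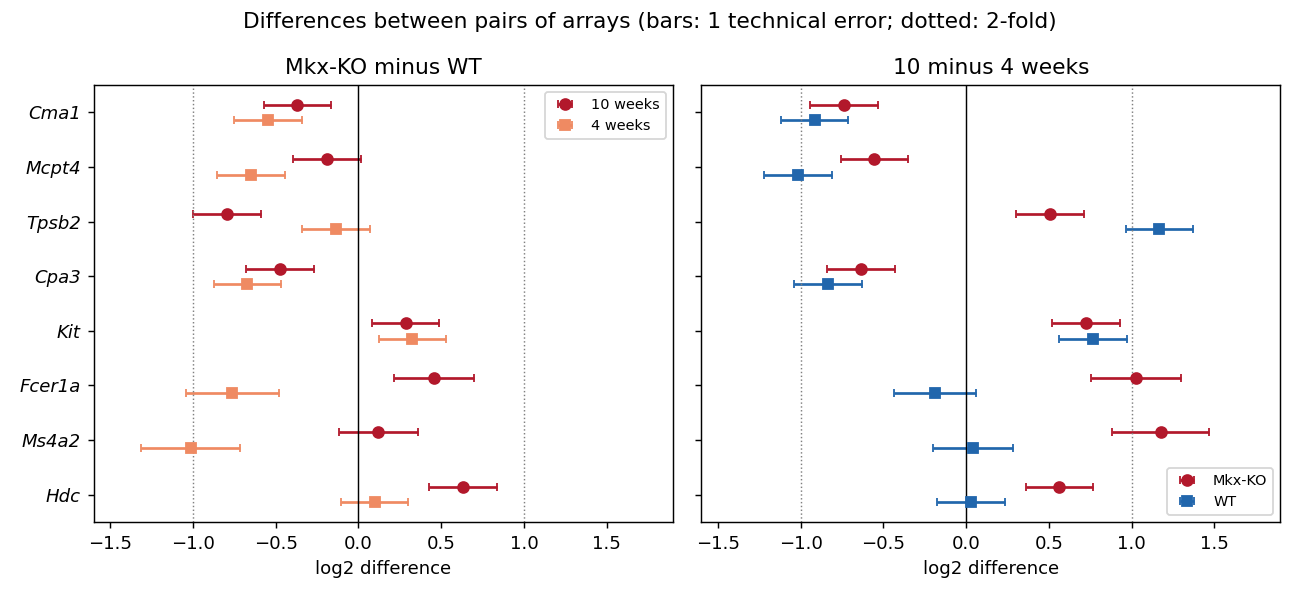
Differences of the 8 measured mast cell genes on the log2 scale, Mkx-KO minus WT on the left and 10 minus 4 weeks on the right. Points are single pairs of arrays, bars are 1 technical error and dotted lines mark a 2-fold difference; the genotype differences of Fcer1a and Ms4a2 lie on opposite sides of 0 at the 2 ages, and the proteases Cma1, Mcpt4 and Cpa3 lie below 0 throughout.

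The chymases and carboxypeptidase A3 formed the most alike group. Cma1 encodes the alpha-chymase of connective tissue mast cells, and its level was 98.4% on the Mkx-KO array and 127% on the WT array at 10 weeks, and 164% on the Mkx-KO array and 240% on the WT array at 4 weeks. Mcpt4 encodes a beta-chymase that cleaves after aromatic residues, and its level was 116% in Mkx-KO and 132% in WT at 10 weeks, and 170% in Mkx-KO and 267% in WT at 4 weeks. Cpa3, whose product is stored in the same granules and trims peptides from the carboxyl end, read 43.9% in Mkx-KO and 60.8% in WT at 10 weeks, and 68.2% in Mkx-KO and 109% in WT at 4 weeks. In all 3 genes the 10-week Mkx-KO array was the lowest and the 4-week WT array the highest, Mkx-KO was below WT at each age, and 10 weeks was below 4 weeks in each genotype.

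The genotype differences (Mkx-KO minus WT) of these 3 genes were smaller at 10 than at 4 weeks in size, by amounts within the technical errors for Cma1 and Cpa3. Cma1 differed by -0.37 ± 0.20 at 10 weeks and by -0.55 ± 0.20 at 4 weeks. Mcpt4 differed by -0.19 ± 0.20 at 10 weeks and by -0.65 ± 0.20 at 4 weeks. Cpa3 differed by -0.47 ± 0.21 at 10 weeks and by -0.67 ± 0.20 at 4 weeks. The age differences (10 minus 4 weeks) were -0.74 in Mkx-KO and -0.92 in WT for Cma1, -0.55 in Mkx-KO and -1.01 in WT for Mcpt4, and -0.64 in Mkx-KO and -0.84 in WT for Cpa3. Of these 12 differences, the WT age difference of Mcpt4, 2.02-fold, was the only one past 2-fold, and it read -0.97 under quantile scaling, -0.85 under normexp background correction and -0.70 in the deposited table, all under 2-fold. In that table, the age differences in Mkx-KO were -0.49 for Cma1, -0.30 for Mcpt4 and -0.39 for Cpa3.

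**Figure D2:**
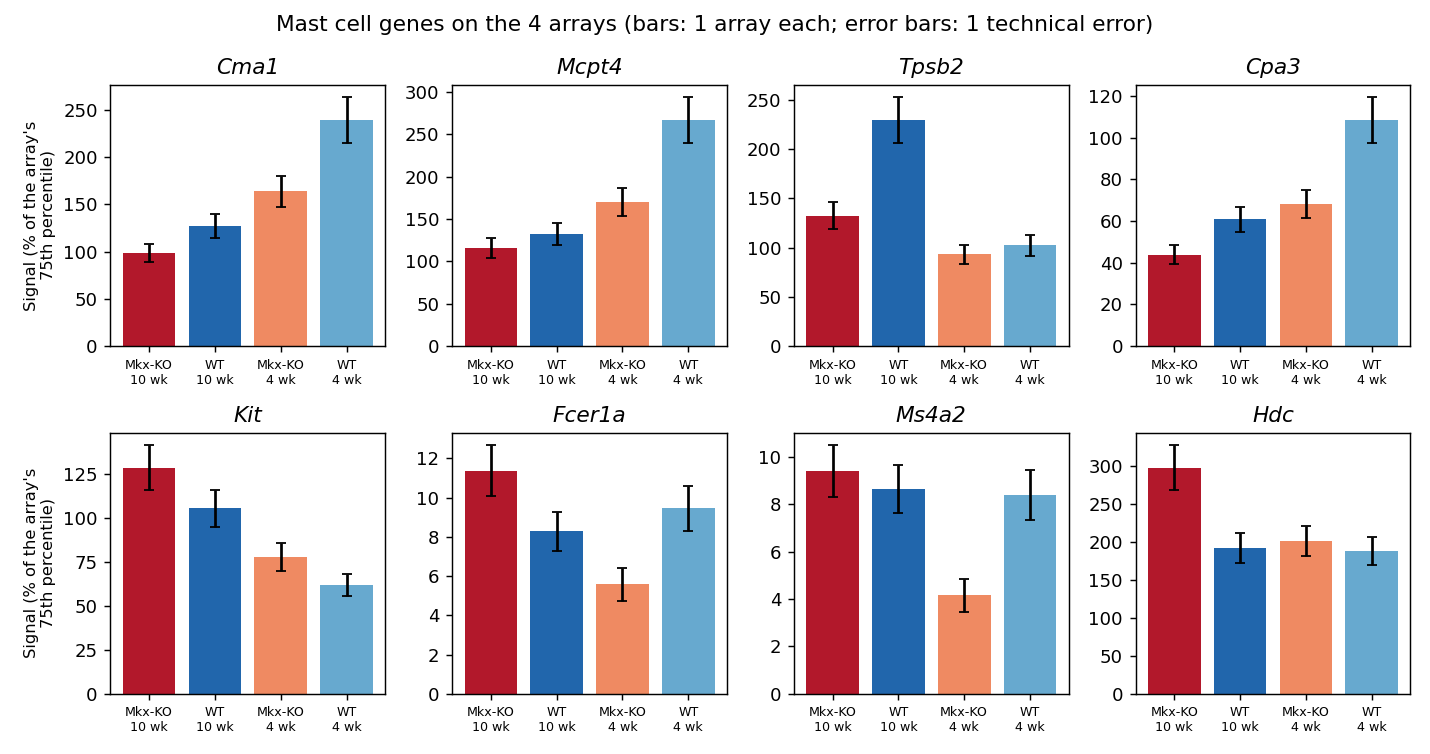
Levels of the 8 measured mast cell genes as processed signal in percent of each array's 75th percentile, on axes that start at 0. Bars are 1 array each and error bars 1 technical error; Cma1, Mcpt4 and Cpa3 share their order over the arrays, with WT at 4 weeks highest, and Kit runs in the reverse order.

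Likeness of pattern was measured as the Euclidean distance between centred log2 levels over the 4 arrays, among 15504 genes well above background on all of them. The centred levels were not brought to equal spread, so a larger swing over the arrays also adds distance. Of the 15503 other genes, Cpa3 was the nearest but 1 to Cma1, at rank 2 with a distance of 0.144, and Mcpt4 was at rank 3 with 0.152. From Cpa3, Cma1 was at rank 1 and Mcpt4 at rank 5. From Mcpt4, Cma1 was at rank 7 and Cpa3 at rank 9. Kash5, which is outside the mast cell lists, was at rank 1 from Cma1, with a distance of 0.14, and from Mcpt4, with 0.0253. Cma2, another chymase gene of the same gene family, was at rank 11 from Cma1, 14 from Cpa3 and 5 from Mcpt4; it was singled out after its levels were seen. These 4 points per gene come from the same arrays, so the distances describe the arrays and carry no test.

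Cma1, Cma2 and Mcpt4 lie in a cluster of chymase and granzyme genes on chromosome 14, whose order in the RefSeq gene table runs from Cma1 to Gzmb. The array gave 8 genes of the cluster well above background on all 4 arrays, and they did not move together. Cma2 differed by -0.10 at 10 weeks and -0.51 at 4 weeks between Mkx-KO and WT, with age differences of -0.51 in Mkx-KO and -0.91 in WT. Near them, Mcpt8, a basophil protease gene, differed by 0.87 at 10 weeks and -0.94 at 4 weeks between genotypes. Ctsg, which encodes the cathepsin G of neutrophil precursors and of some mast cells, differed by 0.99 at 10 weeks and -1.48 at 4 weeks. Gzmb, the cytotoxic granule protease at the end of the cluster, was dim and differed by -0.48 ± 0.29 at 10 weeks and -0.57 ± 0.33 at 4 weeks. Chymases of close sequence can share hybridisation, which was not tested here.

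**Figure D3:**
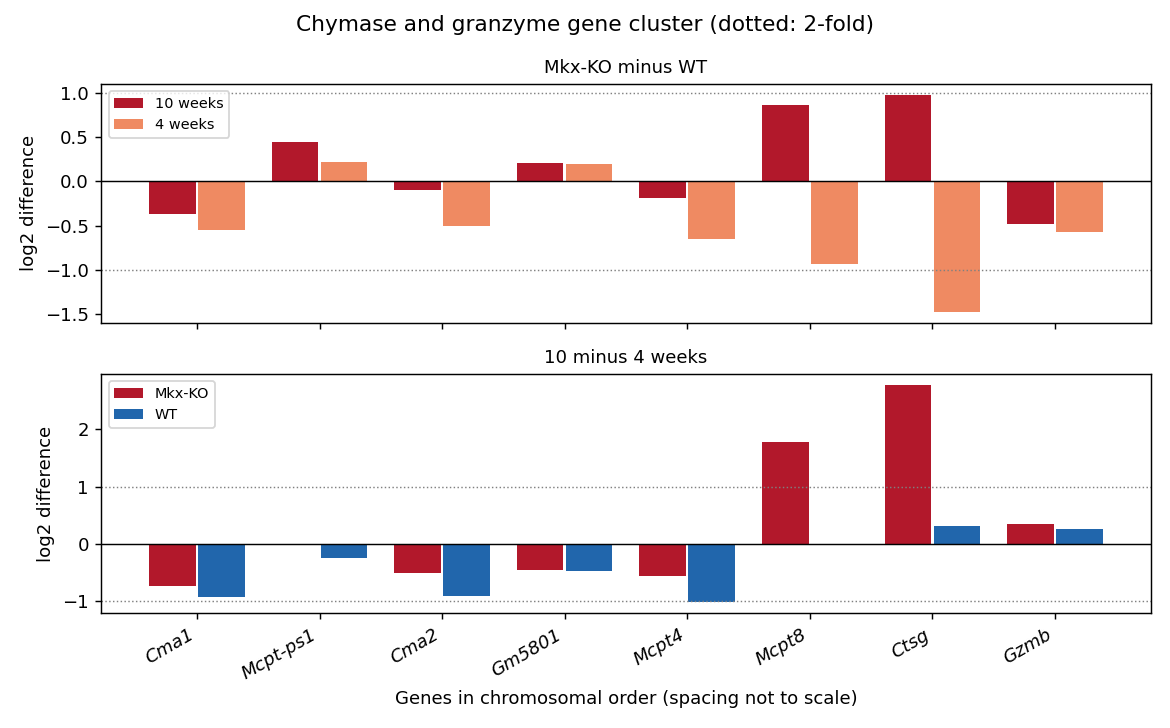
Log2 differences of the 8 genes of the chymase and granzyme cluster that were well above background on all 4 arrays, in chromosomal order with spacing not to scale; each bar compares 1 pair of arrays. The chymases Cma1, Cma2 and Mcpt4 lie below 0 in both panels, and Mcpt8 and Ctsg change sign between the ages in the genotype panel; bars too short to see are the age differences of Mcpt-ps1 in Mkx-KO, -0.02, and Mcpt8 in WT, -0.03.

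The promoters of the 3 proteases are shown because these genes were the most alike over the arrays. Each is the 250 bases before the gene's start, 5′ to 3′ on the minus strand of GRCm38.p6, from RefSeq: chr14:55944676-55944925 for Cma1, chr14:56062311-56062560 for Mcpt4 and chr3:20242182-20242431 for Cpa3. Capitals mark words of the GATA factors (the word AGATAA, the word AGATAG, the word TGATAA and the word TGATAG, on either strand), which GATA1 and GATA2 can bind.
Cma1: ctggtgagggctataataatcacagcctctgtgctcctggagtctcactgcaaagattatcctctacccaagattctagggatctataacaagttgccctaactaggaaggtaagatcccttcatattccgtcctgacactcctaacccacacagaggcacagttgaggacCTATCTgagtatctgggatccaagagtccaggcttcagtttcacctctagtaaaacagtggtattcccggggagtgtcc
Mcpt4: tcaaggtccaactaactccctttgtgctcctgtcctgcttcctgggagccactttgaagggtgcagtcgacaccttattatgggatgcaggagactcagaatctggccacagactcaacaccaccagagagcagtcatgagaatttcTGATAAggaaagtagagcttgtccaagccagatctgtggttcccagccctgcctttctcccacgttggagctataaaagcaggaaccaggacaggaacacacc
Cpa3: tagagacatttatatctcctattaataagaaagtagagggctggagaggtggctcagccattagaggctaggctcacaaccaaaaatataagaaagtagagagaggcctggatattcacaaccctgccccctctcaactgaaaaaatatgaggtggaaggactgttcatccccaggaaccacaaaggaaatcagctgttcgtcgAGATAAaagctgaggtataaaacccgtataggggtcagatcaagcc
Each holds 1 such word, beginning 79 bases before the start in Cma1, 103 in Mcpt4 and 46 in Cpa3. A GATA word was found in the 250 bases of 6 of the 7 members with a promoter entry, Kit being the exception, and in 26.5% of 32851 promoters of the same length. The E-box word CATGTG, which MITF can bind, was searched on both strands as well and was found in 1 of the 7, Fcer1a, and in 12.3% of all promoters. A match is a description of letters and does not show binding.

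The tryptase gene departed from the other proteases. Tpsb2, which encodes the tetramer-forming tryptase mMCP-6, read 133% on the Mkx-KO array and 230% on the WT array at 10 weeks, and 93.2% in Mkx-KO and 102% in WT at 4 weeks. The 10-week WT array stood above the other 3, and the genotypes at 4 weeks were within the technical error. The genotype difference was -0.79 ± 0.20, a 1.73-fold lower level in Mkx-KO, at 10 weeks and -0.13 ± 0.20 at 4 weeks. The age difference was 0.51 ± 0.20 in Mkx-KO and 1.17 ± 0.20, or 2.25-fold, in WT, opposite in sign to those of Cma1, Mcpt4 and Cpa3. The neighbouring tryptase gene Tpsg1 was well above background on 2 of the 4 arrays. Tpsab1 is close to Tpsb2 in sequence, and its share in the signal of the Tpsb2 probe was not tested.

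Kit ran opposite to the chymases over the arrays. Its level was 129% on the Mkx-KO array and 106% on the WT array at 10 weeks, and 77.8% in Mkx-KO and 62.0% in WT at 4 weeks. Mkx-KO was above WT at each age, by 0.29 ± 0.20 at 10 weeks and 0.33 ± 0.20 at 4 weeks, and 10 weeks was above 4 weeks, by 0.73 in Mkx-KO and 0.77 in WT. From Cma1, Kit stood at rank 14397 of 15503 genes in likeness, so its pattern was among the least alike. Gata2, which encodes a transcription factor that mast cells and blood progenitors need, was at rank 17 from Kit with a distance of 0.173. It was chosen for this comparison after its levels were seen. Nearest to Kit was Cd2, one of the T cell markers, at rank 1 with a distance of 0.0397. Of other genes of blood progenitors, Tal1 was at rank 693 from Kit and Flt3 at rank 1805. Gata2 differed between genotypes by 0.13 at 10 weeks and 0.29 at 4 weeks. Melanocytes also express Kit; of 5 melanocyte markers, Tyr, Dct and Pmel were well above background on all 4 arrays, and Tyrp1 and Mlana on none. The summed level of the 5 was 34.7% in Mkx-KO and 27.0% in WT at 10 weeks, and 40.0% in Mkx-KO and 38.2% in WT at 4 weeks. The part of melanocytes in the Kit values was not tested.

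Kitl, which encodes the KIT ligand stem cell factor, differed by -0.10 at 10 weeks and -0.16 at 4 weeks between Mkx-KO and WT, and by 0.28 in Mkx-KO and 0.21 in WT between ages.

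The chains of the high-affinity IgE receptor were the dimmest members and the ones whose genotype difference changed sign with age. Fcer1a, which encodes the IgE-binding alpha chain, read 11.4% on the Mkx-KO array and 8.29% on the WT array at 10 weeks, and 5.57% in Mkx-KO and 9.45% in WT at 4 weeks. Ms4a2, which encodes the signal-amplifying beta chain, read 9.40% in Mkx-KO and 8.65% in WT at 10 weeks, and 4.16% in Mkx-KO and 8.40% in WT at 4 weeks. In both genes the 4-week Mkx-KO array was the lowest, and the other 3 spanned 0.46 log2 units in Fcer1a and less in Ms4a2.

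Fcer1a differed between Mkx-KO and WT by 0.46 ± 0.24 at 10 weeks and by -0.76 ± 0.28 at 4 weeks. Ms4a2 differed by 0.12 ± 0.24 at 10 weeks and by -1.01 ± 0.30, or 2.02-fold, at 4 weeks. The 10-week value of Ms4a2 was within its technical error. Between ages (10 minus 4 weeks), Fcer1a differed by 1.03 ± 0.27 in Mkx-KO and -0.19 ± 0.25 in WT, and Ms4a2 by 1.18 ± 0.29 in Mkx-KO and 0.04 ± 0.24 in WT. Under normexp background correction, the genotype difference at 4 weeks became -0.31 in Fcer1a and -0.37 in Ms4a2, and the age difference in Mkx-KO became 0.47 in Fcer1a and 0.37 in Ms4a2. Quantile scaling gave age differences in Mkx-KO of 0.63 in Fcer1a and 0.76 in Ms4a2, so both 2-fold calls were lost under either setting. The 4-week call of Ms4a2 sat just past 2-fold and was lost under 6 of the other settings tried. A further Ms4a2 probe was not well above background on any array. Fcer1g, the gamma chain shared with other Fc receptors, differed by 0.42 at 10 weeks and -0.15 at 4 weeks between genotypes.

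**Figure D4:**
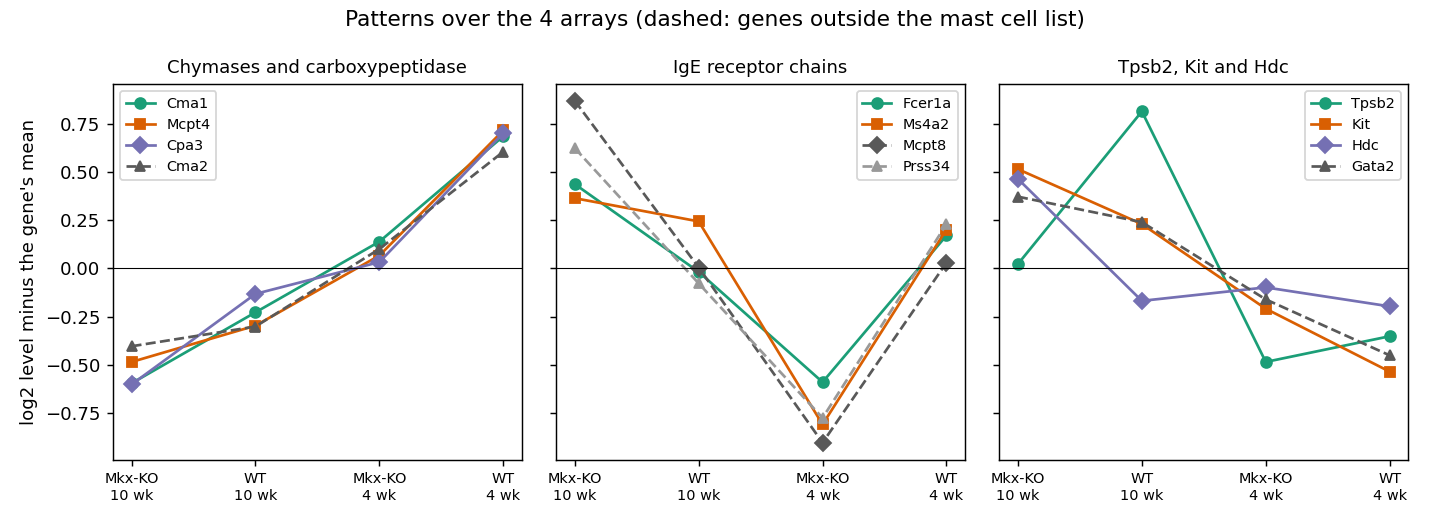
Log2 levels minus each gene's mean over the 4 arrays; 1 point is 1 array, and lines only join the points of a gene. Dashed lines are genes outside the mast cell set, chosen after their levels were seen: Cma2 beside the chymases, the basophil genes Mcpt8 and Prss34 beside the IgE receptor chains, and Gata2 beside Kit; the receptor chains and basophil genes are all lowest in Mkx-KO at 4 weeks.

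The promoters of the receptor chains are shown because both were lowest on the same array. They are the 250 bases before the start on the minus strand of GRCm38.p6, from RefSeq, at chr1:173227230-173227479 for Fcer1a and chr19:11623720-11623969 for Ms4a2, with GATA words and CATGTG in capitals.
Fcer1a: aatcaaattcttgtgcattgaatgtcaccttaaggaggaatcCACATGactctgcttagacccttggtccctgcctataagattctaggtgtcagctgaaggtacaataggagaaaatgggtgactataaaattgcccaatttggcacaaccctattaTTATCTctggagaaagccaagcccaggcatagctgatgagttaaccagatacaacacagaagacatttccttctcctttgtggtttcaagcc
Ms4a2: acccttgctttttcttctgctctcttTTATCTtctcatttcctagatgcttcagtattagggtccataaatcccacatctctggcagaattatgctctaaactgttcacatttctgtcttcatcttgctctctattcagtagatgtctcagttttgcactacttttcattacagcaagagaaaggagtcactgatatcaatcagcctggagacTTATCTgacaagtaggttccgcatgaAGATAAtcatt
Fcer1a holds a GATA word 92 bases and a CATGTG word 208 bases before the start, and Ms4a2 holds 3 GATA words, at 224, 37 and 11 bases before it.

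Markers of other granulocytes moved in the same direction as the IgE receptor chains, as did some markers outside the blood. Skeletal muscle markers had median genotype differences of 0.51 at 10 weeks and -1.42 at 4 weeks, and adipocyte markers 0.40 and -0.67. Stratified epithelium markers went the other way, with medians of -0.90 and 0.85. T cell markers had medians of -0.20 and 0.07, but none of the 4 measured changed sign between the ages. Cd3e and Cd2 were higher in Mkx-KO at both ages, and Cd3g and Cd3d were lower. Salivary and olfactory markers had negative medians at both ages. Of 3 basophil markers, Mcpt8 differed by 0.87 at 10 weeks and -0.94 at 4 weeks between Mkx-KO and WT, and Prss34, a basophil serine protease gene, by 0.70 and -1.01 at the same ages; Cd200r3 was well above background on 1 array, WT at 4 weeks. The summed level of the basophil markers was 124% in Mkx-KO and 71.4% in WT at 10 weeks, and 41.1% in Mkx-KO and 82.0% in WT at 4 weeks. Eosinophil markers had median differences of 0.75 at 10 weeks and -1.69 at 4 weeks, with Prg2, the gene of eosinophil major basic protein, at 1.06 and -2.77, and their summed level was 965% in Mkx-KO and 474% in WT at 10 weeks, and 170% in Mkx-KO and 1036% in WT at 4 weeks. Neutrophil precursor markers had medians of 0.81 at 10 weeks and -1.26 at 4 weeks, and all 6 of them were lower in Mkx-KO at 4 weeks. Their part in the Fcer1a, Ms4a2 and Hdc values was not tested. The summed level of the 8 mast cell genes was 838% in Mkx-KO and 864% in WT at 10 weeks, and 785% in Mkx-KO and 985% in WT at 4 weeks. That is a smaller spread relative to its size than in the basophil and eosinophil sums. The mast cell sum adds genes of opposite order over the arrays, such as Cma1 and Kit, which cancel in it. Single mast cell genes ranged over 0.66 log2 units (Hdc) to 1.31 log2 units (Cpa3) across the 4 arrays.

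In the likeness ranks, Ms4a2 was at rank 198 from Fcer1a. Ahead of it were the eosinophil marker Ccr3 at rank 35, the basophil gene Prss34 at rank 87 and the progenitor marker Flt3 at rank 139. Other markers of the same lists were far less alike: the eosinophil markers Prg2 and Epx were at ranks 14549 and 14407 of 15503, and the basophil gene Mcpt8 at rank 1149. All of these were chosen after their levels were seen. From Ms4a2, Fcer1a was at rank 127, Prss34 at 241 and Mcpt8 at 819. The vesicular amine transporter gene Slc18a2, which loads histamine into granules, was at rank 128 from Fcer1a and 216 from Ms4a2.

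Hdc encodes histidine decarboxylase, which makes histamine. Its level was 298% on the Mkx-KO array and 192% on the WT array at 10 weeks, and 202% in Mkx-KO and 188% in WT at 4 weeks. The 10-week Mkx-KO array stood above the other 3, which lay within 0.10 log2 units of each other. The genotype difference was 0.63 ± 0.20 at 10 weeks and 0.10 ± 0.20 at 4 weeks, and the age difference 0.56 in Mkx-KO and 0.03 in WT. A further Hdc probe, of much lower signal, gave 1.03 at 10 weeks and 0.67 at 4 weeks between genotypes, so the probes had the same sign and differed in size at 4 weeks.

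Other genes of mast cell biology came from 6 lists with 37 genes, all with a probe. Between Mkx-KO and WT, 27 were measured at 10 weeks, 17 higher and 10 lower with a median of 0.10, and 0 were called. At 4 weeks 28 were measured, 8 higher and 20 lower with a median of -0.16, and 1, Ctsg, was called as lower. Between ages, 20 of 27 were higher and 7 lower in Mkx-KO mice with a median of 0.38, and 5 were called, all higher: Ctsg, Lat, Gata1, Tal1 and Il33. In WT mice 15 of 27 were higher and 12 lower with a median of 0.05, and Il33 was called as higher. The shares of all genes called in these comparisons were those given for the mast cell genes.

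Among granule genes, Slc18a2 differed by 0.15 at 10 weeks and -0.88 at 4 weeks between Mkx-KO and WT, and Rab27b, which helps granules dock, by -0.01 and -0.44 at the same ages. Vamp8, a granule fusion protein gene, differed by -0.23 at 10 weeks and 0.12 at 4 weeks. Tph1, the serotonin-forming enzyme, was measured in both genotypes at 4 weeks, where it differed by -0.53. The mucosal protease genes Mcpt1 and Mcpt2, the pruritogen receptor genes Mrgprb1 and Mrgprb2, Mcpt9, Il3, Il4 and Il9 were not well above background on any array.

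Genes that make eicosanoids split the same way as the receptor chains in part. Alox5ap, the activating protein of 5-lipoxygenase, differed by 0.51 at 10 weeks and -0.48 at 4 weeks, and Alox5 by 0.22 and -0.40. Hpgds, which makes prostaglandin D, was dim and differed by -0.28 ± 0.28 at 10 weeks and -0.65 ± 0.32 at 4 weeks. Ltc4s, the leukotriene C synthase, differed by 0.38 and 0.02 at the same ages. Alox5ap and Alox5 are expressed by neutrophils and macrophages too.

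Of the signalling genes, Lat, an adaptor of the IgE receptor and of the T cell receptor, differed by 0.02 at 10 weeks and -0.89 at 4 weeks. Syk, the kinase recruited by the receptor, differed by 0.69 at 10 weeks and 0.16 at 4 weeks, and Btk by 0.48 and -0.07. Of the transcription factors, Gata1 differed by 0.93 at 10 weeks and -0.87 at 4 weeks, Tal1 by 0.54 and 0.05, and Mitf by 0.09 and -0.22. Gata1 and Tal1 also mark red cell precursors. Il33, an epithelial and stromal cytokine that acts on mast cells, differed by -0.32 at 10 weeks and -0.54 at 4 weeks between genotypes, and by 1.42 in Mkx-KO and 1.20 in WT between ages. Epithelial markers moved as well, with medians of -0.90 at 10 weeks and 0.85 at 4 weeks between genotypes and -0.42 in Mkx-KO and 1.24 in WT between ages, and their part in the Il33 values was not tested.

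An additive fit of genotype and age over the 4 arrays with limma, which leaves 1 residual degree of freedom, called none of 16795 genes for either term at an adjusted p of 0.05 (0% for each), while 459 genes for genotype and 3867 for age had an unadjusted limma p under 0.05. For genotype, 2 of the 8 mast cell genes passed 0.05 before adjustment, Cma1 at -0.46 ± 0.14 (SE) and Cpa3 at -0.57 ± 0.14, and limma's adjusted p was 0.9999 for all 8. For age, 5 of the 8 did so before adjustment, namely Cma1 at -0.83, Mcpt4 at -0.78, Cpa3 at -0.74, Kit at 0.75 and Tpsb2 at 0.84, and limma's adjusted p ran from 0.179 to 0.521 over the 8. With age left out of the fit, 0 of the 8 passed 0.05 before adjustment for genotype, and for age 3 of the 8 did so with genotype left out and 3 in the deposited table. The fit treats the genotype effect as equal at both ages, which Fcer1a and Ms4a2 did not show. Median brightness in windows of 15 by 15 spots around the 8 genes differed between paired arrays by at most 0.156 log2 units, at Cpa3 between ages in WT.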

How the data were processed

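RNA of the 4 groups was hybridised to 1-colour Agilent arrays. The deposited scans hold spot intensity from Agilent Feature Extraction 11.5.1.1, per the file headers, whose processed signal is background-subtracted on a linear scale. The deposited series table also holds intensity, equal to the processed signal times 1 factor per array (2.08 and 1.81 for Mkx-KO and WT at 10 weeks, 1.54 and 1.64 at 4 weeks), by a rule not given in the sources used here.

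Of 56605 probes, 32994 matched a gene in a RefSeq table. Spots marked as outliers (60 to 77 per array) were left out, log2 signals were taken, and each array's 75th percentile (signals of 352 and 418 for Mkx-KO and WT at 10 weeks, 400 and 370 at 4 weeks) was subtracted. Their precision is limited by having 1 array per group. Genotype and age were fitted with limma 3.58.1 in R 4.3.3, tested on simulated data. Normexp used median spot and background signals, as no mean signal was given. Members and lists were chosen with earlier results of these data known. Genes outside the set were named from each mast cell list, up to 4 with the largest mean difference among those well above background on at least 2 arrays; markers of other cells were named from their lists. Likeness was ranked by Euclidean distance, and the 5 genes nearest to the members' mean were taken. Alternatives were other scalings, background correction, probe rules and fold thresholds.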

Additional observations from a re-analysis of the deposited data

Results flagged for a closer look

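The genotype difference (Mkx-KO minus WT) had opposite signs at 10 and 4 weeks in the genes named here, and with 1 array per group the change was not tested. The members are given whatever their error, and at 10 weeks Ms4a2 was within its technical error and Fcer1a under 2 errors; of the other mast cell lists and the basophil markers, the only lists screened, genes well above background on all 4 arrays are given where both differences exceeded 2 technical errors. At 10 weeks minus 4 weeks it changed by 1.22 in Fcer1a and 1.13 in Ms4a2, both in log2 units. Among other mast cell genes it changed by 2.46 in Ctsg, 0.99 in Alox5ap and 1.80 in Gata1. The basophil genes changed by 1.80 in Mcpt8 and 1.71 in Prss34. For Fcer1a the age difference (10 minus 4 weeks) was also of opposite sign in the genotypes, and WT minus Mkx-KO came to -1.22.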

How the results depend on the processing

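Of 136 values of single mast cell genes that another setting could change, 132 kept their sign and 24 moved by more than the technical error. The exceptions, all in WT between ages, were Ms4a2, at 0.04, which read -0.13 under quantile scaling and under the mean over probes and -0.18 under normexp, and Fcer1a, at -0.19, which read 0.13 in the deposited table. Counts of calls among the 8 genes were less stable. The share of all genes past 1.5-fold or 3-fold was not computed, so the counts at those thresholds have no share over all genes beside them. For Mkx-KO against WT at 10 weeks the count of 0 became 2 at 1.5-fold. At 4 weeks the count of 1 became 0 under quantile scaling, median centring, normexp, the deposited table, the mean over probes and 3-fold, and 4 at 1.5-fold, and the median of -0.60 became -0.34 under normexp. For age in Mkx-KO the count of 2 became 0 under quantile scaling, normexp and 3-fold, 1 under median centring and the mean over probes, and 5 at 1.5-fold, and the median of 0.54 became 0.79 in the deposited table. For age in WT the count of 2 became 1 under quantile scaling and normexp, 5 at 1.5-fold and 0 at 3-fold; in the deposited table it stayed 2 but both were higher, Kit entering at 1.08 and Mcpt4 leaving at -0.70; and the median of -0.08 became 0.24 in the deposited table. That table moved the median of all genes to 0.14 for age in Mkx-KO and 0.26 in WT. Calls over all genes fell under normexp to 149 against 397 and 259 against 593 for genotype at 10 and 4 weeks, and to 810 against 1579 and 703 against 1429 for age in Mkx-KO and WT. The share of higher calls for age was 66.1% in Mkx-KO, against 85.4% in the deposited table and 55.8% under quantile scaling, and 60.7% in WT, against 82.9% in the deposited table. In limma, age called 55 genes under normexp and 5 with genotype left out, against 0; the counts among the mast cell genes stayed 0 in every limma setting run. The cause of these shifts was not tested. No paired analysis was possible because each group has 1 array and the labels give no replicate numbers, and for the same reason no array could be left out. Among the 8 mast cell genes, Fcer1a and Ms4a2 lie nearest to background, and their differences carry the largest technical errors.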

Other observations

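The mean pattern of the 8 mast cell genes stood close to none of them, since Kit and the chymases cancel. The 5 genes nearest to that mean in Euclidean distance over the 4 arrays were Kif19a at 0.0394, Nodal at 0.0499, H2bc6 at 0.0566, Nbea at 0.0572 and Gpr149 at 0.062, and none of them belongs to the mast cell lists. Ctsg had processed signals of 2472 in Mkx-KO and 1482 in WT at 10 weeks, and 410 in Mkx-KO and 1060 in WT at 4 weeks. The wide marker differences of the 4-week pair also took in skeletal muscle genes, with a median of -1.42 in Mkx-KO against WT, and olfactory genes, with a median of -7.02.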
